A study of Homo sapiens with 6 samples.

Results

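The mitochondrial ribosomal protein genes were examined as a family, with members taken by name. The family was chosen with earlier results of these data known. Every row of the gene count table whose symbol is MRPL or MRPS followed by a number, with or without a letter from A to C, was taken. This rule found 78 of the 59653 genes in the table, 49 MRPL genes named for the large subunit and 29 MRPS genes named for the small subunit. All 78 were among the 19008 genes tested, which reached 5 normalized counts in 3 or more libraries. The 6 RNA libraries were made from SK-OV3, an ovarian cancer line of human origin recorded as wildtype. In the siPVT1 group, 3 libraries were made from cells taken 48 h after transfection with 50 nM of a pool of siRNAs against the lncRNA PVT1. In the siControl group, 3 libraries came from cells given a non-targeting siRNA pool in the same way. The comparison asks which transcripts change when PVT1 is silenced, in 1 cell line and with 1 siRNA pool against PVT1.

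Mitochondria carry their own ribosomes, which translate the few proteins encoded by mitochondrial DNA, all of them parts of the respiratory chain and the ATP synthase. The ribosomal RNAs come from mitochondrial DNA, but all of the proteins are encoded in the nucleus, made in the cytosol and imported. Some descend from proteins of bacterial ribosomes and others were added during the evolution of mitochondria. Genes of the family are known as targets of factors that raise mitochondrial content, among them NRF1, the ETS factor GABP, the PGC-1 coactivators and MYC.

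The libraries held 28383171 to 35059576 counts. Differences among replicates exceeded counting noise in both groups (chi-square per degree of freedom 1.79 to 6.20 for pairs of siControl libraries, 9.44 to 50.5 for pairs of siPVT1 libraries), and every library was treated as a separate sample. Nothing in the labels says that they came from separate cultures, and p-values then measure the spread between these libraries, which may be technical. PVT1 had 3298, 4090.5 and 3377 normalized counts in siControl and 2349.7, 2111 and 2062 in siPVT1, a log2 fold change of −0.72 (SE 0.097, adjusted p = 0.000342). All adjusted p-values given come from the quasi-likelihood test of edgeR and were adjusted by Benjamini-Hochberg over the 19008 genes. Keratins and PAX8 were present in all libraries, and the 7 carcinoma markers summed to 26543 to 29803 normalized counts in siControl and 32004 to 34779 in siPVT1. Of these 7, KRT8, KRT18 and PAX8 rose, KRT7 and ERBB2 fell (log2 fold changes −0.51 and −0.43), and EPCAM and MUC16 did not pass the test, with a list median of −0.43. Among 6 markers of other cell types, the leukocyte marker PTPRC was at 0 in all siPVT1 libraries and COL1A2 had at most 4.4 normalized counts. CD68 was present in all libraries, with 547.6 to 606.6 normalized counts in siControl and 580.7 to 890.9 in siPVT1. It did not pass the test (adjusted p = 0.111), while CDH5, PECAM1 and COL1A1 rose past both thresholds. That list summed to 2699 to 2755.5 normalized counts in siControl and 9623 to 12204 in siPVT1, and its part in the results was not tested.

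Of the 78 mitochondrial ribosomal protein genes, 49 fell in siPVT1, 4 rose and 25 did not pass the test. The share that fell was 62.8%, against 28.4% of all genes tested, and the share that rose was 5.13%, against 29.5% of all genes tested. Together they took 0.367% to 0.393% of all counts in the siControl libraries and 0.243% to 0.277% in the siPVT1 libraries. The median log2 fold change of the family was −0.40, with quartiles of −0.66 and −0.07, while the median of all genes tested was 0.001. A value below 0 was found for 65 members. Most of the changes were of moderate size, and 5 members passed a second threshold as well, a log2 fold change of 1 or more in size. All 5 were lower (MRPL1, MRPS25, MRPL4, MRPL15 and MRPL46), whereas 9.64% of all genes passed both thresholds as lower and 11.8% as higher. The number was 9 without siPVT1 replicate 3 and 12 when libraries were scaled by the total count. In RNA of whole cultures, less RNA in every cell and a loss in a part of the cells cannot be told apart.

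**Figure D1:**
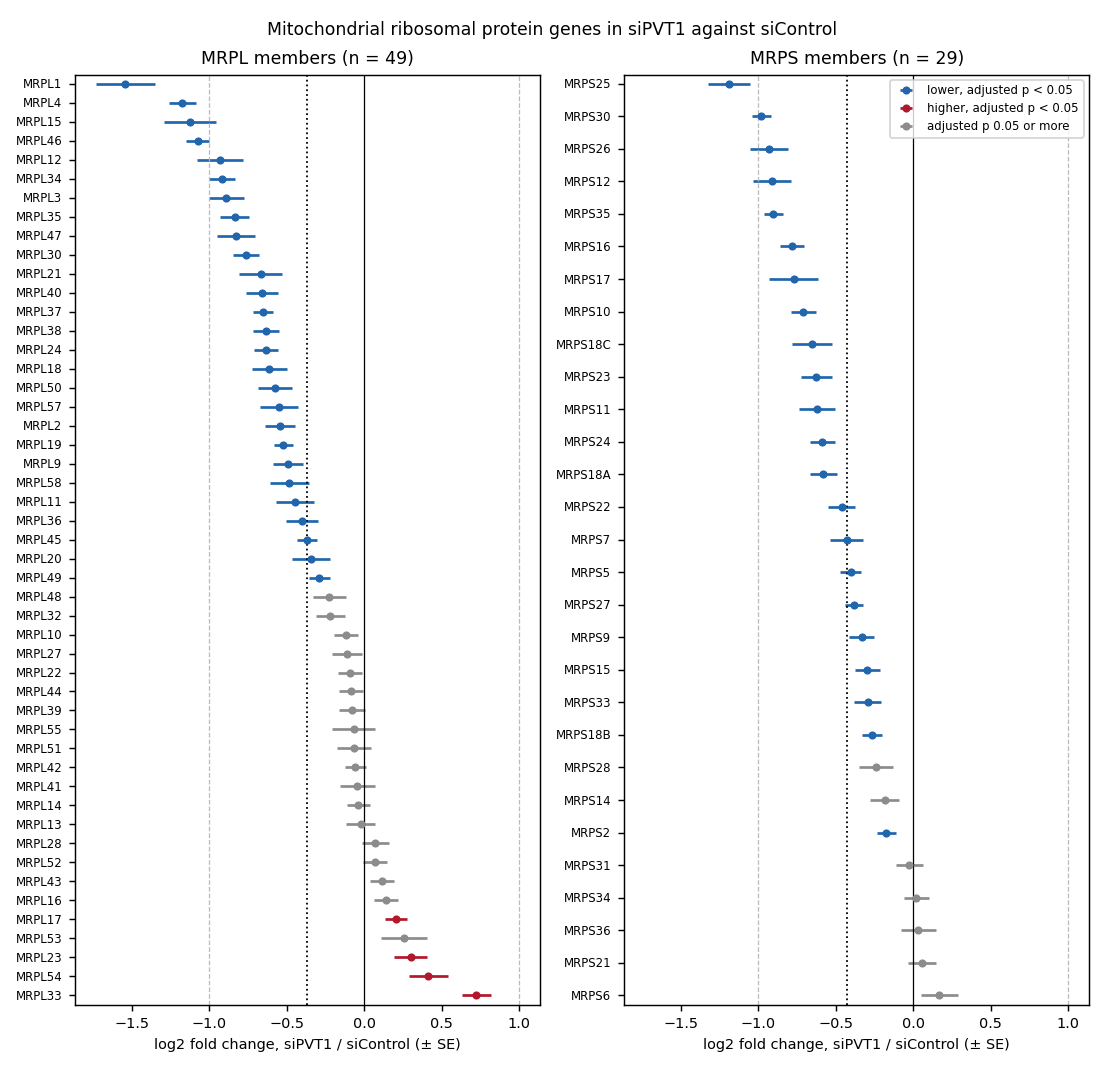
Log2 fold change (siPVT1 over siControl, x axis) with its standard error for each of the 49 MRPL and 29 MRPS genes, 3 libraries per group. Dotted lines mark the median of each subunit (−0.37 and −0.43), grey dashed lines a log2 fold change of 1 in either direction, and 5 members lie beyond the lower one.

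MRPL1, a protein of the stalk beside the site where tRNAs leave the ribosome, had the lowest value of the family. Its normalized counts were 904, 858 and 905 in the siControl libraries and 229, 269.9 and 413 in the siPVT1 libraries, always listed by replicate number. The highest siPVT1 library lay below the lowest siControl library, and the 3 siPVT1 libraries differed among themselves more than the siControl libraries did. The means were 889 ± 27 and 304 ± 96.7 (SD, n = 3 each), and the log2 fold change was −1.54 (SE 0.19, adjusted p = 0.000219). In GRCh38, MRPL1 spans 77862830 to 77952785 of chromosome 4 (plus strand).

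MRPS25, a protein of the small subunit found in mitochondria and not in bacteria, had 2317, 2092 and 2288 normalized counts in siControl and 837, 886 and 1208 in siPVT1. The groups were far apart, with the third siPVT1 library again the highest of its group. The log2 fold change was −1.19 (SE 0.134, adjusted p = 0.000132). MRPS25 (chromosome 3, 15009611 to 15065339, minus strand) overlaps exons of NR2C2 on the opposite strand. Because the strand setting of the counting is not given, reads of the pair could have been mixed, and NR2C2 moved the other way, with a log2 fold change of 0.55.

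MRPL4 and MRPL15, both with a bacterial counterpart, were lower too. MRPL4 (chromosome 19, 10251901 to 10260055, plus strand) had 974, 900.1 and 994 normalized counts in siControl and 424, 388 and 458.5 in siPVT1. Its replicates were close to each other in both groups, and the log2 fold change was −1.17 (SE 0.088, adjusted p = 1.62e-05). MRPL15 was among the most abundant members in siControl, with 4018, 3537 and 3760 normalized counts, and had 1375, 1554 and 2264 in siPVT1. The siPVT1 libraries again spread widely, and the log2 fold change was −1.12 (SE 0.168, adjusted p = 0.000624). Without siPVT1 replicate 1, MRPL15 did not reach the fold threshold and MRPS30 did, so the number past both thresholds stayed at 5.

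MRPL46, a mitochondria-specific protein of the large subunit, had 810.4, 746 and 768 normalized counts in siControl and 383, 358 and 362 in siPVT1. The spread within siPVT1 was small here (368 ± 13.4 against 775 ± 33, SD, n = 3 each), and the log2 fold change was −1.075 (SE 0.076, adjusted p = 1.28e-05). MRPS30 had the smallest adjusted p of the family, 7.75e-06. Its normalized counts were 2023, 1863 and 1902 in siControl and 988, 974 and 972.5 in siPVT1, a log2 fold change of −0.98 (SE 0.062). The siPVT1 libraries were nearly equal for MRPS30 (SD 8.53), unlike for MRPL1, MRPL15 and MRPS25.

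**Figure D2:**
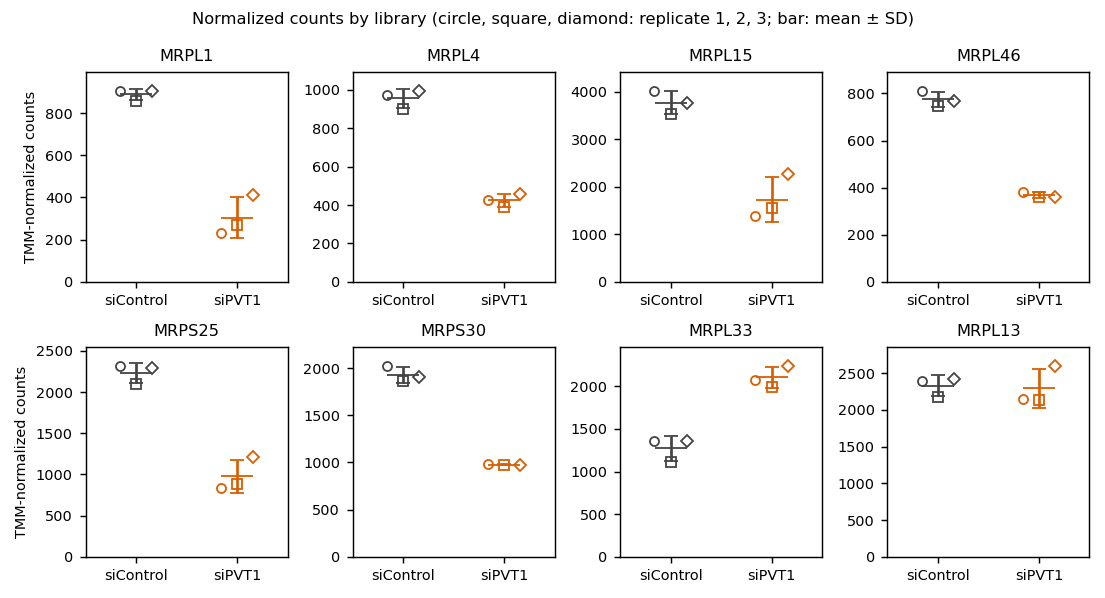
TMM-normalized counts (y axis, from 0) of the 5 members past both thresholds, of MRPS30, of MRPL33, the member with the highest fold change, and of MRPL13, a member that did not pass the test. Symbols are single libraries and bars are means ± SD (n = 3), and the groups overlap for MRPL13 alone among these 8 genes.

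The groups did not overlap for 48 of the 49 members that fell, the exception being MRPL20. The same held for 5353 of the 5395 genes that fell among all genes tested. Of all 78 members, 48 had every siPVT1 library below every siControl library and 4 had every siPVT1 library above. Across all genes tested, these shares were 32.3% and 33.2%. Next to the members past both thresholds, the lowest fold changes in the large subunit were those of MRPL12, MRPL34 and MRPL3. MRPL12, which forms the stalk that recruits translation factors and is also known to bind the mitochondrial RNA polymerase, had 2648, 2220.5 and 2710.2 normalized counts in siControl and 1131, 1197.5 and 1643 in siPVT1. Its log2 fold change was −0.93 (SE 0.146, adjusted p = 0.000806) and the groups did not overlap. MRPL34 had a log2 fold change of −0.92 (SE 0.084). MRPL3, a core protein near the catalytic centre, had the highest counts of the family in siControl, 5034, 4750.2 and 5044.5, and 2283, 2538 and 3188 in siPVT1. Its log2 fold change was −0.89 (SE 0.115, adjusted p = 0.000286). MRPL37, an abundant mitochondria-specific member, had 3782.5, 3443 and 3609.9 normalized counts in siControl and 2220.5, 2230.0 and 2438 in siPVT1. Its groups did not overlap either, and the log2 fold change was −0.65 (SE 0.066, adjusted p = 7.7e-05).

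In the small subunit, MRPS26, MRPS12, MRPS35 and MRPS16 followed MRPS25 and MRPS30. MRPS12, the counterpart of the bacterial protein at the decoding centre, had 722, 607 and 732.5 normalized counts in siControl and 338.5, 332 and 424 in siPVT1. The groups did not overlap, and the log2 fold change was −0.91 (SE 0.122, adjusted p = 0.000349). MRPS26, a member with few counts, averaged 332 ± 24.3 in siControl and 174 ± 24.2 in siPVT1 (SD, n = 3 each), which gave a log2 fold change of −0.93 (SE 0.123). MRPS35 (−0.90, SE 0.062) and MRPS16 (−0.78, SE 0.077) were more abundant, with siControl means of 3468 and 3263. The smallest falls that passed the test were those of MRPS2 (−0.17, adjusted p = 0.0378), MRPS18B (−0.27), MRPL49 (−0.29), MRPS33 (−0.29), MRPS15 (−0.30), MRPS9 (−0.33), MRPL20 (−0.34), MRPL45 (−0.37) and MRPS27 (−0.38). MRPL20 had 1594, 1420.4 and 1566 normalized counts in siControl and 1017, 1145 and 1444 in siPVT1, so that the third siPVT1 library lay inside the siControl range. Without 1 library, MRPL20 lost its call in 5 of 6 fits and MRPS2 in 4 of 6.

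The 4 members that rose, MRPL33, MRPL54, MRPL23 and MRPL17, all belong to the large subunit. MRPL33, one of the smallest proteins of the ribosome, had 1355, 1106 and 1358 normalized counts in siControl and 2076, 1997 and 2239 in siPVT1. Every siPVT1 library was above every siControl library, and the log2 fold change was 0.72 (SE 0.094, adjusted p = 0.000286). MRPL33 (chromosome 2, 27771717 to 27988087, plus strand) shares exonic sequence with BABAM2 on the same strand, which had a log2 fold change of 0.18 (adjusted p = 0.183). MRPL54 had 468.5, 387 and 537 normalized counts in siControl and 609, 582 and 665 in siPVT1. Its log2 fold change was 0.41 (SE 0.124, adjusted p = 0.0198). MRPL23 and MRPL17 had log2 fold changes of 0.30 (adjusted p = 0.0372) and 0.21 (adjusted p = 0.035), and the groups did not overlap for any of the 4. These calls were less steady than the falls. MRPL33 remained higher when the libraries were scaled by their total count, while MRPL54, MRPL23 and MRPL17 then had log2 fold changes of 0.27, 0.15 and 0.06 with adjusted p-values of 0.073, 0.186 and 0.448. Without siControl replicate 2, MRPL33 was again the only member called higher.

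The 25 members that did not pass the test had log2 fold changes from −0.24 to 0.26, 16 of them below 0. They included MRPL51, the member with the highest siControl level per length of transcript, with 3341, 2640 and 3248 normalized counts in siControl and 2716, 2812 and 3290 in siPVT1. The groups overlapped, and the log2 fold change was −0.065 (SE 0.109, adjusted p = 0.636). MRPL13, which lies on chromosome 8 as PVT1 does, had 2395, 2171 and 2426 normalized counts in siControl and 2144, 2140.5 and 2597 in siPVT1, a log2 fold change of −0.02 (SE 0.091, adjusted p = 0.848). Of the other members on chromosome 8, MRPL15 fell as given above and MRPS28 had a log2 fold change of −0.24 (adjusted p = 0.0901), so the 3 members on this chromosome did not share 1 pattern. MRPL55 and MRPL53, which had few counts as MRPS26 did, had log2 fold changes of −0.07 (SE 0.139) and 0.26 (SE 0.149). For MRPL16, MRPL28, MRPL43, MRPL52, MRPS21, MRPS34 and MRPS36 the value lay between 0.02 and 0.14, and its sign turned when libraries were scaled by the total count, without a call in either case. MRPS31 shares sequence with pseudogenes whose counts came to 37.6% to 59.7% of its own, and its value of −0.03 is uncertain for that reason. MRPL45 followed with 5.60% to 9.36%, and 31 of the 35 members with a pseudogene named after them had none over 2%.

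Both subunits were lower in siPVT1. Of the MRPL genes, 27 of 49 (55.1%) fell and 4 rose, with a median log2 fold change of −0.37. Of the MRPS genes, 22 of 29 (75.9%) fell and 0 rose, with a median of −0.43. No MRPS gene was called higher by edgeR at an unadjusted p under 0.05 (0 genes) or by DESeq2 (0 genes). Without siPVT1 replicate 3, 1 MRPS gene was called higher, MRPS6. The summed normalized counts of the MRPL genes were 72657, 64352 and 71796 in siControl and 50147, 50667 and 58189 in siPVT1. Those of the MRPS genes were 45316, 40961 and 45419 in siControl and 29798, 30295 and 33083 in siPVT1. Neither subunit had an overlap between groups, and the siPVT1 mean was 76.1% of the siControl mean for MRPL and 70.8% for MRPS.

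The ratio of the 2 sums was 1.60, 1.57 and 1.58 in siControl and 1.68, 1.67 and 1.76 in siPVT1, again without overlap. Its mean was 1.58 ± 0.0164 in siControl and 1.70 ± 0.0474 in siPVT1 (SD, n = 3 each). With MRPL33 left out, a choice made after its value was seen, the means were 1.56 ± 0.0151 and 1.64 ± 0.0469. The medians were less clearly apart than the sums. The median of MRPL exceeded that of MRPS by 0.061, and without siPVT1 replicate 3 it was lower by 0.029 (−0.029), so no order of the subunits can be read from the medians. The sums weight abundant genes, and their ratio is given as a description with no test.

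**Figure D3:**
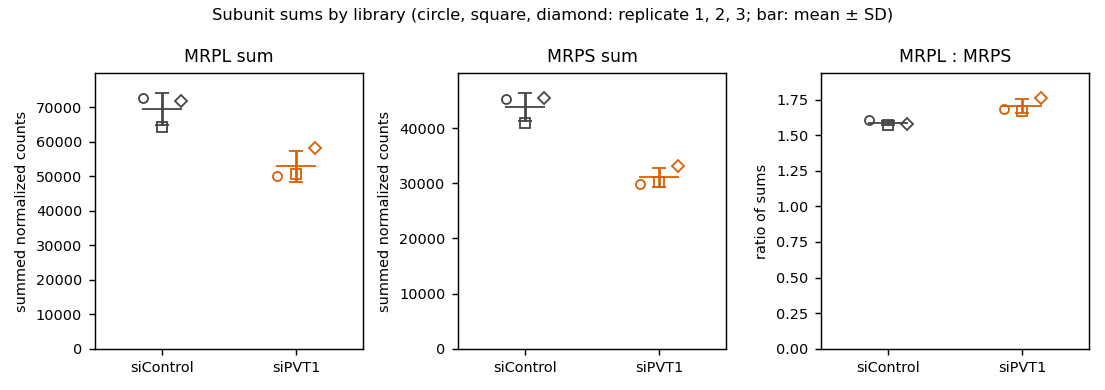
Summed TMM-normalized counts of the 49 MRPL and 29 MRPS genes (left and middle) and the ratio of the 2 sums (right) in each library, all axes from 0. Both sums are lower in the 3 siPVT1 libraries and the ratio is higher (1.67 to 1.76 against 1.57 to 1.60).

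The names do not follow the structure of the ribosome in 3 cases. MRPS30 and MRPS18A are parts of the large subunit of the assembled human mitoribosome, and MRPS36 is now known as a component of the oxoglutarate dehydrogenase complex. MRPS30 and MRPS18A fell, MRPS18A with 704, 607 and 729 normalized counts in siControl and 454, 459 and 451 in siPVT1, a log2 fold change of −0.58 (SE 0.089). MRPS36 had 567, 556 and 609 normalized counts in siControl and 504.5, 585 and 678 in siPVT1, with overlapping groups and a log2 fold change of 0.03 (adjusted p = 0.83). With the genes placed by structure, 29 of 51 large subunit genes and 20 of 26 small subunit genes fell, and the medians were −0.40 and −0.42.

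Among large subunit genes with a bacterial counterpart, 18 of 30 fell and 3 rose (median log2 fold change −0.47), and among the mitochondria-specific ones 9 of 19 fell and 1 rose (median −0.22). In the small subunit the same classes had 12 of 16 lower (median −0.42) and 8 of 10 lower (median −0.42). The spread inside each class was wider than the distance between classes. Large subunit genes with a bacterial counterpart, for example, ran from −1.54 (MRPL1) to 0.72 (MRPL33). Another 5 genes encode parts of the mitoribosome without an MRP symbol. PTCD3 and GADD45GIP1 fell (log2 fold changes −0.26 and −0.34, adjusted p = 0.0167 and 0.0288), while DAP3 (−0.15), AURKAIP1 (−0.22) and CHCHD1 (−0.05) did not pass the test.

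The siPVT1 libraries were not alike in how far the family moved. Relative to the siControl mean, the median deviation on the log2 scale was −0.45, −0.41 and −0.25 for MRPL in the siPVT1 libraries by replicate number, and −0.46, −0.47 and −0.38 for MRPS. The siControl libraries had medians between −0.11 and 0.07. Among members that fell, siPVT1 replicate 3 had the highest value of its group for 40 of 49 (81.6%), compared with 59.6% of all genes that fell. It was also the highest for all 4 members that rose and for 18 of the 25 that did not pass the test. The matching shares of all genes that rose or did not pass were not counted, so these counts may reflect the library and not the family. Without siPVT1 replicate 3, 55 members fell, 5 rose and 9 passed both thresholds, with a median of −0.50, and MRPS6 joined the members that rose. MRPL46, MRPS30, MRPS18A, MRPL45 and MRPS33 were among the few members that were not highest in that library. PVT1 itself had 2349.7, 2111 and 2062 normalized counts in the siPVT1 libraries by replicate number. Whether its level bears on the differences among these libraries was not tested.

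**Figure D4:**
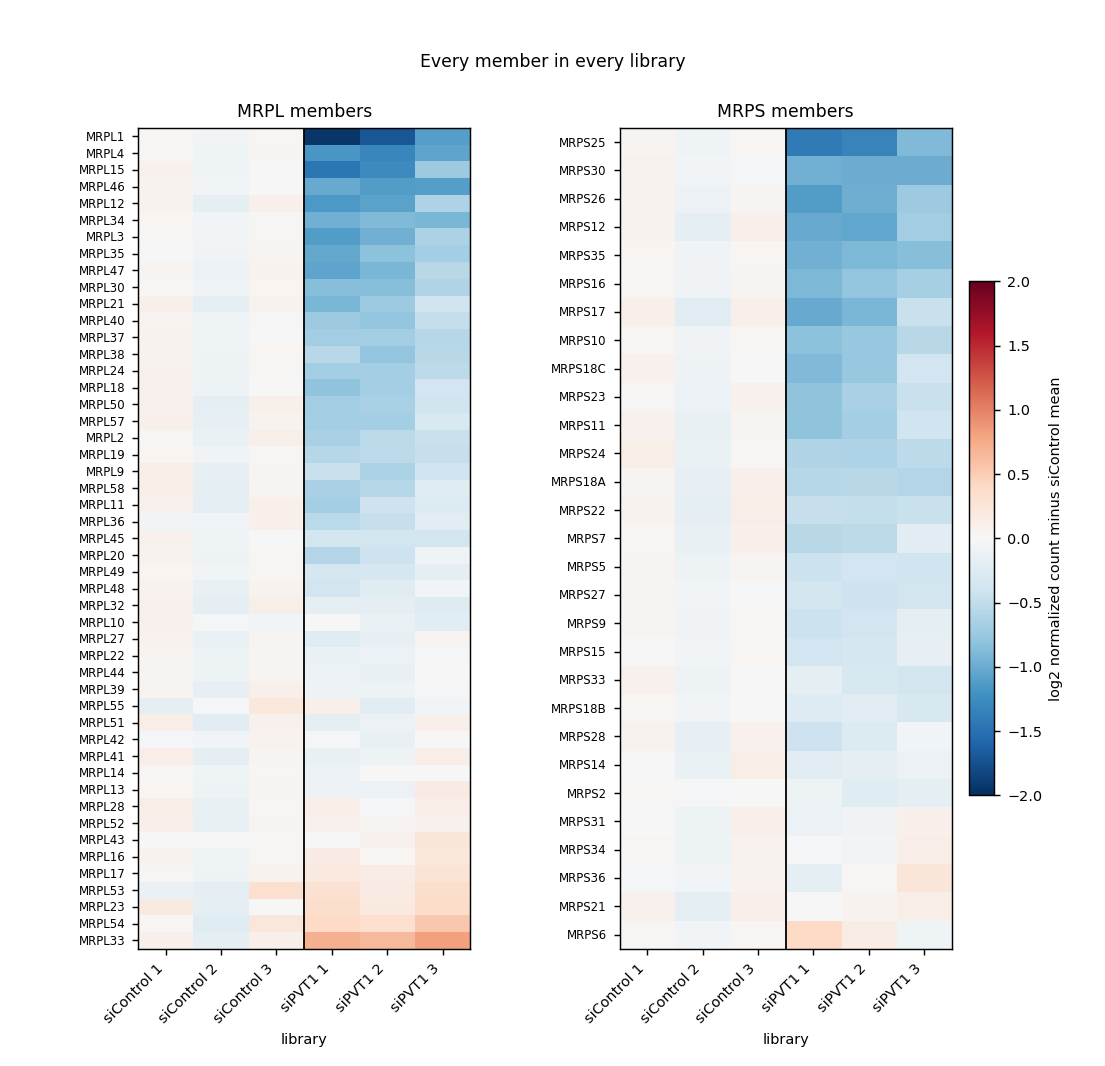
Log2 normalized count of each member in each library minus its siControl mean, with genes ordered by log2 fold change within MRPL (left) and MRPS (right). The third siPVT1 library is paler than the other two for most members that fell, and darker for MRPL33 and MRPL54, which rose.

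Levels were compared between genes per kilobase of the canonical GENCODE transcript. In siControl the highest were MRPL51 with 3425 ± 424 normalized counts per kilobase, MRPL3 with 2894 ± 97.7, MRPL33 with 2506 ± 284 and MRPL12 with 2504 ± 264 (SD, n = 3 each), and the last 2 did not differ beyond their spread. In siPVT1 the order at the top was different. MRPL33 came first with 4142 ± 243 per kilobase, ahead of MRPL51 with 3273 ± 342, while MRPL3 was at 1563 ± 273 (rank 5), MRPL12 at 1312 ± 276 (rank 13) and MRPL15 at 1001 ± 272 (rank 25, from rank 7). The proteins are held in the ribosome in equal numbers apart from MRPL12, but the transcript levels per kilobase ranged over 34.6-fold in siControl. A part of this range comes from the annotation, since the canonical transcript of MRPL42, the lowest of all, is 15557 bases long.

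Transcript length was a feature along which members differed. In the 26 members with the shortest canonical transcripts, 496 to 999 bases, 12 fell and 3 rose, with a median log2 fold change of −0.23. In the 26 with the longest, 1605 bases or more, 20 fell and 1 rose, with a median of −0.56, and the middle 26 had 17 lower and a median of −0.40. Spearman's correlation between log2 fold change and length was −0.27 across the 78 genes, which share libraries and are not independent replicates, and 0.01 across 15955 tested genes with a canonical transcript. In the same 3 ranges of length, 18%, 23.1% and 32.7% of the other tested genes fell, with medians of 0.09, 0.04 and −0.01. In each range, therefore, members fell more often than the other genes of that range. The longest range reached 15557 bases and held 12472 of the other genes, so lengths were not matched inside it. The median length was 1242 bases for members and 3031 for all tested genes with a canonical transcript.

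The members lie on 21 chromosomes, with at most 8 on any of them. Within 1000 bases, 26 members have a protein-coding gene that starts on the opposite strand in the other direction. MRPL46 and MRPS11 form such a pair inside the family on chromosome 15, with starts 320 bases apart, and both fell. MRPS11 had 917, 784 and 900 normalized counts in siControl and 493, 541 and 655 in siPVT1, a log2 fold change of −0.62 (adjusted p = 0.00222). Across all genes tested, 28.4% fell and 29.5% rose. Of 15 lower members with a tested partner outside the family, 9 partners fell, 1 rose and 5 did not pass the test. Examples are IGHMBP2 beside MRPL21 (−0.64 and −0.67) and HELQ beside MRPS18C (−0.51 and −0.65), while SARS2 beside MRPS12 had a log2 fold change of 0.10 and KLC4 beside MRPL2 one of 0.41. Of 7 other members with such a partner, 1 partner fell and 3 rose. MRPL43 and TWNK, which encodes the mitochondrial helicase, start 46 bases apart and had log2 fold changes of 0.12 and −1.13. A total of 32 members share exon positions with another protein-coding gene, for which reads could be divided or mixed. This holds for some of the counted partners too. KLC4, TWNK, CYB5RL, GGA3, PTCD2, NCAPD2 and MTBP overlap exons of their member on the opposite strand, so the 2 values of such a pair may not be separate.

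Promoters were read from RefSeq for GRCh38 and covered 250 bases before to 50 bases after the start of 69 members. Short motifs of NRF1, GABP, MYC and YY1, a further factor known to act on genes of mitochondrial function, were searched on both strands, CACGTG (the E-box bound by MYC), CCGGAAG (the ETS core bound by GABPA), GCGCATGC (a core of NRF1) and AAGATGGC (a core of YY1). The last letters of the ETS core can overlap the first ones of the YY1 core. The YY1 core also holds ATG, the letters of a start codon. Whether matches inside transcripts coincide with start codons was not tested. The ETS core was found in 42% of member promoters and 10.7% of all 27305 promoters, and the YY1 core in 29.0% and 3.03%. The NRF1 core was in 8.70% and 3.27%, and the E-box in 8.70% and 7.43%. The ETS core was found in 35.6% of the 45 promoters of members that fell and in 54.2% of the other 24. The YY1 core was in 33.3% and 20.8% of the same groups, and the NRF1 core in 4.44% and 16.7%. With 45 and 24 promoters these shares are a description, and a match is not shown to be a bound site. The 27305 promoters were not limited to the genes tested here and were not matched for GC content, of which member promoters had a median of 60.3%. Whether other expressed genes with similar promoters hold these motifs as often was not tested.

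To show where the matches lie, 130 bases are given for 5 members that fell, from 100 bases before the start to base 30 after it, 5′ to 3′ on the strand of the gene. Capitals mark the matches. In MRPL46, MRPS30, MRPS10 and MRPS18A a YY1 core begins 9 to 14 bases into the transcript, and MRPS10, MRPS18A and MRPL3 hold an ETS core 22 to 32 bases before the start. The windows are MRPL46 (chr15:88467359-88467488, minus strand), MRPS30 (chr5:44808847-44808976, plus strand), MRPS10 (chr6:42217832-42217961, minus strand), MRPS18A (chr6:43687762-43687891, minus strand) and MRPL3 (chr3:131502942-131503071, minus strand).
MRPL46: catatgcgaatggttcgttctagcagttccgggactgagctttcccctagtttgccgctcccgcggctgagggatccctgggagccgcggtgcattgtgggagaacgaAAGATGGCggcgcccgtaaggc
MRPS30: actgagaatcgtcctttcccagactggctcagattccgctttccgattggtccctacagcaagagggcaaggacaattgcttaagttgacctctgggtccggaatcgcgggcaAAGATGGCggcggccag
MRPS10: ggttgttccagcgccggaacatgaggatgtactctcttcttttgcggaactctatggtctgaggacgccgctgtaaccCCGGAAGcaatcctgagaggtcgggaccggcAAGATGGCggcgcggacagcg
MRPS18A: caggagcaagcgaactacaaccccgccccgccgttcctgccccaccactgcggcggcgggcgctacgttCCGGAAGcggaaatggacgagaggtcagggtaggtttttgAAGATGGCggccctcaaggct
MRPL3: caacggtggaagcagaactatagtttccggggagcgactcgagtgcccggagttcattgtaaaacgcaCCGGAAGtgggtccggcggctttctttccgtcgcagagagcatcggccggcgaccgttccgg

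The same window is given for members with other patterns. MRPL1 and MRPS25, the members with the lowest fold changes, held none of the 4 motifs. MRPL42 has a YY1 core at the same position as MRPL46, 9 bases into the transcript, but had a log2 fold change of −0.06 (adjusted p = 0.506). MRPL33, which rose, has an ETS core 8 bases before its start, and MRPL17, which rose too, has 3 matches to the NRF1 core, of which 2 overlap. The windows are MRPL1 (chr4:77862730-77862859, plus strand), MRPS25 (chr3:15065286-15065415, minus strand), MRPL42 (chr12:93467414-93467543, plus strand), MRPL33 (chr2:27771619-27771748, plus strand) and MRPL17 (chr11:6683311-6683440, minus strand).
MRPL1: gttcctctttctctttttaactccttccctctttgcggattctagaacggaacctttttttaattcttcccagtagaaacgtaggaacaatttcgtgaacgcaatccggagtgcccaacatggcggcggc
MRPS25: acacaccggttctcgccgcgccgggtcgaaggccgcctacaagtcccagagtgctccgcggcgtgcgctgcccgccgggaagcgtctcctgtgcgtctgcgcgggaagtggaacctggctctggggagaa
MRPL42: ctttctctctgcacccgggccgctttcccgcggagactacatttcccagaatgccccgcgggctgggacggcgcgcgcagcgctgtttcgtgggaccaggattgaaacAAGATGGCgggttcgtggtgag
MRPL33: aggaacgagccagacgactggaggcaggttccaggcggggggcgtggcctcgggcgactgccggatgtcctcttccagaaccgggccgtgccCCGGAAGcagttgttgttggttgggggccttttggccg
MRPL17: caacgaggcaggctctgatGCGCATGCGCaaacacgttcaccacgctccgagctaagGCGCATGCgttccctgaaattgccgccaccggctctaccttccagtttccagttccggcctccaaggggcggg

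On the strand of the gene, the YY1 core lay within the first 50 bases in 21.7% of member promoters, against 1.39% of all promoters. An ETS core within 50 bases of the start was found in 34.8% and 6.01%. These narrower windows were chosen after the positions had been seen. In these windows the YY1 core was found in 26.7% of the 45 promoters of members that fell and in 12.5% of the other 24, and the ETS core in 28.9% and 45.8%.

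Other genes of mitochondrial translation were counted in the same way. Among 28 assembly factors of the mitoribosome, 15 (53.6%) fell and 2 (7.14%) rose, with a median log2 fold change of −0.34. Of all genes tested, 28.4% fell, 29.5% rose and 9.64% passed both thresholds as lower. MRM1, which methylates the large ribosomal RNA, had 158, 152.5 and 161 normalized counts in siControl and 46.8, 33.9 and 66.7 in siPVT1. The groups were well apart, with a log2 fold change of −1.66 (SE 0.218, adjusted p = 0.000309). ERAL1, a chaperone of the small subunit RNA, and MTERF3 also passed both thresholds (−1.13 and −1.06). TFB1M, which dimethylates the small subunit RNA, moved the other way, with 680, 695 and 689 normalized counts in siControl and 1300, 1239 and 1036 in siPVT1 (log2 fold change 0.79, SE 0.093, adjusted p = 0.000171), and NGRN rose by 0.28. Without siPVT1 replicate 3, and likewise with scaling by the total count, 5 assembly factors passed both thresholds in place of 3.

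Of 16 translation factors and related genes, 8 (50%) fell and 0 rose (median log2 fold change −0.24), with 0 higher also at an unadjusted p under 0.05 in edgeR and in DESeq2. Across all genes tested, 28.4% fell, 29.5% rose and 9.64% passed both thresholds as lower. GUF1 and TACO1, which act in elongation and in the synthesis of a respiratory chain subunit, passed both thresholds at −1.18 and −1.10, and without siPVT1 replicate 3 or with total-count scaling 4 genes of this list did. TUFM, the elongation factor that brings tRNAs to the ribosome, had a smaller fall, with 3732, 3338 and 3728 normalized counts in siControl and 2875, 2922 and 3290 in siPVT1 (log2 fold change −0.25, adjusted p = 0.0229). All 6 genes of mitochondrial transcription fell. MTERF2 (−1.44), TEFM (−1.20) and TFB2M (−1.07) passed both thresholds, and the polymerase POLRMT (−0.48, adjusted p = 0.00175) and the packaging factor TFAM (−0.49, adjusted p = 0.0184) fell less.

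Of 9 regulators of mitochondrial biogenesis, 7 fell (77.8%). Among all genes tested, 28.4% fell and 9.64% passed both thresholds as lower. MYC had 7736, 7352 and 7554 normalized counts in siControl and 3761, 3634 and 3825 in siPVT1, close replicates in both groups, with a log2 fold change of −1.01. PPRC1 (−1.27), GABPB1 (−1.19) and PPARGC1B (−1.12) passed both thresholds as well. PPARGC1A was low in all libraries, with 50.8 to 54.6 normalized counts in siControl and 29.1 to 37.9 in siPVT1 (−0.66, adjusted p = 0.0175), and NRF1 had a log2 fold change of −0.40 (adjusted p = 0.00715). GABPA (0.15, adjusted p = 0.0788) and YY1 (0.11, adjusted p = 0.117) did not pass the test. Whether any of these genes had a part in the change of the ribosomal protein genes was not tested.

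The protein genes of the mitochondrial DNA, which these ribosomes translate, did not follow. Of 13 genes, 0 fell and 10 rose (76.9%), with a median log2 fold change of 0.75, while 28.4% of all genes tested fell and 29.5% rose. MT-ATP8, MT-CO3, MT-CYB and MT-ND4L passed both thresholds as higher, as 11.8% of all genes tested did. The count of 0 lower genes was the same at an unadjusted p under 0.05 in edgeR and in DESeq2, while scaling by the total count gave 1 lower gene and leaving out siPVT1 replicate 3 gave 3. The 4 genes past both thresholds became 1 and 0 in these 2 settings, and 10 genes rose in each. Of 85 tested genes of cytosolic ribosomal proteins, 53 (62.4%) rose and 6 (7.06%) fell (median 0.27). RPL3L, RPL41 and RPLP0 passed both thresholds as lower. RPL3L had few normalized counts, 15.7 to 18.2 in siControl and 0 in every siPVT1 library. RPL41 had 17556 to 22162 in siControl and 1647 to 1810 in siPVT1, and RPLP0 had 41214 to 47257 and 14396 to 16622. The 2 kinds of ribosomal protein genes thus had medians on opposite sides of 0. This held when libraries were scaled by the total count, which moved the median of all genes to −0.15. In that scaling the medians were −0.52 for MRPL, −0.58 for MRPS, 0.12 for cytosolic ribosomal proteins (30 higher, 11 lower) and 0.60 for the mitochondrially encoded genes, and 60 members fell and 1 rose.

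**Figure D5:**
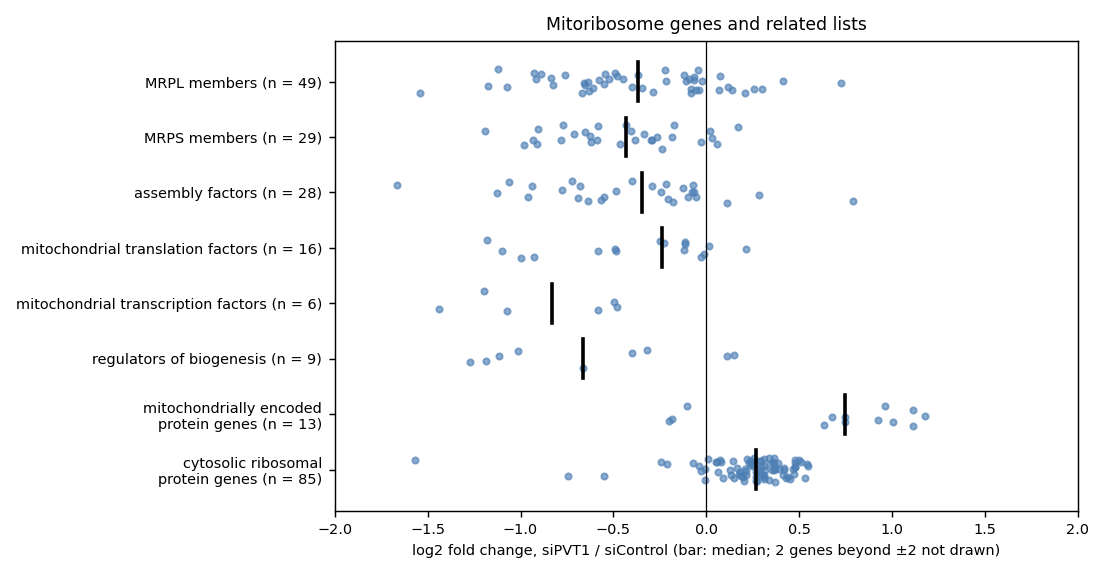
Log2 fold change (x axis) of each tested gene in the family and in related gene lists, with a black bar at the median of each list. MRPL and MRPS, assembly, translation and transcription factors and regulators have medians below 0 (−0.24 to −0.83), and the mitochondrially encoded and cytosolic ribosomal genes above 0 (0.75 and 0.27); 2 cytosolic ribosomal genes beyond the axis are not drawn.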

How the data were processed

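Messenger RNA of SK-OV3 cells was sequenced in 6 libraries, 3 siControl and 3 siPVT1, grouped by the sample labels. The authors aligned single-end reads to GENCODE v35 (GRCh38.p13) with STAR and counted them with Salmon (per the submitters' processing notes, versions 2.7.3a and 0.14.1), and the values that the authors deposited are unnormalized estimated counts in whole numbers, 1 row for each gene symbol. The strand setting is not given in the sources used here. Salmon divides reads between similar transcripts, so genes that share sequence are uncertain.

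The deposited counts were used as given in edgeR 4.0.16 (R 4.3.3) with TMM normalization and the quasi-likelihood test, with the siRNA as the only term, over the 19008 genes that reached 5 normalized counts in 3 or more libraries. Normalized counts are counts divided by TMM-scaled library sizes and multiplied by their mean. P-values were adjusted over these genes (Benjamini-Hochberg), a gene was called at an adjusted p under 0.05, and the second threshold was an absolute log2 fold change of 1. Standard errors were obtained from the size of the log2 fold change and the F statistic (change over the root of F). The tests were checked on simulated counts with 200 of 19008 genes changed. Of genes changed by a log2 fold change of 1, edgeR recovered 62% and DESeq2 60%. At a log2 fold change of 2 they recovered 87% and 83%. Unchanged genes called were 4 in edgeR and 6 in DESeq2. Far more genes were called in the data, 28.4% as lower and 29.5% as higher. No simulated library was set apart from its group as siPVT1 replicate 3 was. These shares therefore need not hold for the tests on these data. Deviations by library used a pseudocount of 0.5. A two-sided exact permutation test of 3 libraries against 3 cannot go below p = 0.1 and was not used for single genes.

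The members and lists were chosen with earlier results of these data known. Genes named are the members past both thresholds, the 6 highest and 6 lowest called fold changes of each subunit, the 3 highest and 3 lowest mean normalized counts over all 6 libraries, members whose sign turned with the scaling, genes of structural or positional interest, and, in other lists, those past both thresholds and a few known regulators. Genes named for neighbouring promoters, for their promoter sequence or as markers, and MRPS6, MRPS28, MRPS31, MRPL45, DAP3, CHCHD1, AURKAIP1, PTCD3, GADD45GIP1, TFB1M and NGRN, were chosen after their values were seen. Positions, lengths and overlaps came from GENCODE v44 on GRCh38, which matched all 78 members, and promoters from RefSeq (GRCh38.p14), which matched 69. Alternatives were DESeq2 1.42.0, DESeq2 size factors inside edgeR, total-count scaling, the filterByExpr filter or none, a replicate block, and leaving out each library.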

Additional observations from a re-analysis of the deposited data

How the results depend on the processing

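The number of members that fell stayed between 45 and 60 and their median log2 fold change was below 0 under every alternative run, and no called member changed sign. DESeq2 gave 50 lower and 4 higher members, its size factors in edgeR and filterByExpr 49 and 4, and no filter 48 and 3. Scaling by the total count gave 60 lower members, the 49 among them, 1 higher, 12 past both thresholds and a median of −0.551, with the median of all genes at −0.148. With 1 library left out, the number higher ranged from 1 to 5, the number past both thresholds from 5 to 9, the median from −0.50 to −0.384, and the large minus small subunit difference of medians from −0.029 to 0.088. The lowest of these differences, the 9 members and the median of −0.50 came from leaving out siPVT1 replicate 3, and the single higher member from leaving out siControl replicate 2, with 2 without siControl replicate 1. The difference of medians was 0.018 with subunits set by structure and 0.027 with the 5 genes without an MRP symbol. The cause of these shifts was not tested. Equal replicate numbers did not pair the libraries (correlations of −0.14, −0.0273 and 0.0387 for numbers 1, 2 and 3), and the fit with the replicate block gave 48 lower, 4 higher and 5 past both thresholds, the call of MRPS2 being lost (adjusted p = 0.0695). The mean MRPL to MRPS ratio in siPVT1 was 1.637 without MRPL33, against 1.705. Standard errors of the members reached 0.19 (MRPL1), and groups of 3 libraries were too small for a test of single outlying libraries.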
